A study of Mus musculus with 135 samples.

Results

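The adhesion and homing receptor genes of haematopoietic stem cells (HSCs) examined here were a group of 10 genes taken by name: Cxcr4, Itga4, Itga6, Itgb1, Itgb2, Cd44, Tek, Cd9, Alcam and Jam3. All 10 were among the 15181 genes of the count table, and the list was set by name rather than by a measured value, though earlier results of these data were known when it was drawn up. The study sequenced single HSCs of young and old C57BL/6 mice on a microfluidic chip. A figure legend of the study gives 1 mouse per age, and the labels do not give the animal of each cell. The young mouse was aged 2 to 3 months and the old mouse 20 to 25 months. Animals of both ages carried the Vwf-eGFP transgene, a bacterial artificial chromosome in which Vwf regulatory sequence drives a green fluorescent protein. Bone marrow cells of both ages were sorted by the same gate, viable lineage-negative cells with Sca-1, c-Kit and CD150 and without CD48. Of 135 cells, 114 passed the read, mitochondrial and gene limits of the study, 52 young and 62 old. Because each age was a single mouse processed in its own experiment, age, animal, sex-linked expression and capture run cannot be told apart, no test between ages could be made, and every error given is a spread or a counting error among cells.

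HSCs live in bone marrow niches that hold them by secreted and membrane-bound cues. CXCL12 from stromal cells is read by the chemokine receptor CXCR4, which draws HSCs to the marrow and retains them there. Integrins are pairs of an alpha and a beta chain, and the chains encoded by Itga4 and Itga6 both pair with that of Itgb1, giving receptors for VCAM1 and fibronectin and for laminins. The beta chain of Itgb2 belongs to leukocyte integrins that bind ICAMs. CD44 binds hyaluronan, TEK (also known as TIE2) is the angiopoietin receptor, CD9 is a tetraspanin that associates with integrins, and ALCAM and JAM-C (Jam3) are immunoglobulin-family adhesion molecules of cell contacts.

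Upstream sequence of the genes that differed most between ages is given first, since transcription starts beside it. Of the 10 genes, 7 had a promoter in the RefSeq table of GRCm38.p6, and Itga6, Itgb2 and Jam3 did not. The 250 bases before the start of Cxcr4, Cd9 and Alcam are printed 5′ to 3′ on the strand of the gene, with matches to the motifs searched in capitals. They are chr1:128592300-128592549 on the minus strand for Cxcr4, chr6:125494761-125495010 on the minus strand for Cd9 and chr16:52453082-52453331 on the minus strand for Alcam.
Cxcr4: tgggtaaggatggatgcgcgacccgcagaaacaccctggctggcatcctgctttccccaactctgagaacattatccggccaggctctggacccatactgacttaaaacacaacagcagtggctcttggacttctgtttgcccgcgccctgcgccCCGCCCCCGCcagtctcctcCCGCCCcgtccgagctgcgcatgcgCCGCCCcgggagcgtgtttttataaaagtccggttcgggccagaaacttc
Cd9: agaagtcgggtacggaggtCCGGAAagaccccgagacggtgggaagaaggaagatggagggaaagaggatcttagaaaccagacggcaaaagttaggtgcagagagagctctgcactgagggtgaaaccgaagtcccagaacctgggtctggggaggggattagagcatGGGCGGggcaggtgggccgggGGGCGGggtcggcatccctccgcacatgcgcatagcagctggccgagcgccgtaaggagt
Alcam: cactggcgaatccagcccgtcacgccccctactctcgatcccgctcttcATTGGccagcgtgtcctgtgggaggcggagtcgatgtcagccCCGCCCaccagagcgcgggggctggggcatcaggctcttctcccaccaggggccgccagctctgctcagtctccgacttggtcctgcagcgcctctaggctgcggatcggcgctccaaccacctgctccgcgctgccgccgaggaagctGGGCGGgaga
Motifs were searched on both strands. The capitals mark SP1 matches, spelled GGGCGG, in all 3 sequences. In Cxcr4 they also mark an EGR match, spelled GCGNGGGCG, which overlaps an SP1 match. In Cd9 they mark an ETS match, spelled CCGGAA, and in Alcam a match to the letters CCAAT. SP1 letters lay in 5 of the 7 windows, those of Cxcr4, Itga4, Cd9, Itgb1 and Alcam, and in 32.7% of 32851 windows of this length before all RefSeq starts. The EGR letters lay only in the Cxcr4 window among the 7, against 4.70% of all windows. The ETS letters were found for Cd9 (12% of all windows) and the CCAAT box for Alcam (33.8%). The GATA motif, searched as AGATAA, was found for Cd44 (9.99%). The RUNX motif, searched as TGTGGT, was found for Itga4 (14%). TGANTCA (AP-1, 6.75%), CACGTG (E-box, 6.02%) and TGACGTCA (CRE, 1.55%) were in none of the 7. The Cxcr4, Cd9 and Alcam windows were 61.2%, 61.6% and 69.2% G and C and held 19, 16 and 22 CpG dinucleotides, and the median over all windows was 52.4% and 6. These matches describe letters and not binding.

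In GRCm38 the genes that differed most lie at chr1:128588199-128592299 (Cxcr4, minus strand), chr2:71786886-71858427 (Itga6, plus strand), chr6:125460266-125494760 (Cd9, minus strand) and chr16:52248996-52453081 (Alcam, minus strand). The other 6 lie on chromosomes 2 (Itga4 and Cd44), 4 (Tek), 8 (Itgb1), 9 (Jam3) and 10 (Itgb2). Counts were made over the exons of each gene. Exons of Cd9 share 218 bases with the opposite-strand transcript Gm26728 and those of Jam3 1159 bases with the antisense Gm48796, so reads from those bases cannot be assigned with certainty.

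The kept cells held 273236 to 5688706 reads on genes in the young and 276316 to 4086659 in the old, with medians of 2798990 and 2116024. Intervals on shares and sums cover counting error only. The libraries carried no molecular identifiers, so intervals on sums count reads and not molecules, and leave out the spread among cells. Kit was expressed in 49 young and 61 old cells, Hlf in 49 and 55, and Cd48, which the gate leaves out, in 1 and 0. Slamf1, which encodes the CD150 used for sorting, was expressed in 9 and 15 cells. Each of 6 cell cycle genes was lower in old cells, and 4 of 5 immediate early genes were higher. Xist was expressed in 50 young and 8 old cells, while among genes of the Y chromosome Eif2s3y was expressed in 0 and 42, Ddx3y in 0 and 38, Uty in 2 and 34, and Kdm5d in 0 and 10. Sex-linked expression thus moved with age, and sex and age cannot be told apart here. The source of Xist in 8 old cells was not tested. Endothelial markers, relevant because endothelium also uses TEK, ALCAM and JAM proteins, summed to 0 to 1224 CPM in young cells (median 2.5) and 0 to 1925 CPM in old cells (median 0.757). Of 5 such markers in the table, Kdr was expressed in 0 young and 2 old cells and Plvap in 0 and 1, while Emcn was expressed in 20 and 7 and Pecam1 in 9 and 14. Flt4 was expressed in 0 and 2. Their part in the member differences was not tested. Megakaryocyte markers, of which 7 were in the table, summed to 0 to 1116 CPM in young cells (median 1.07) and 0 to 3181 CPM in old cells (median 31.9).

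Levels are means over cells of log2(CPM + 1), where CPM are counts scaled to a common total of reads on genes, and expression in a cell means a value above 2 on that scale. A difference of at least 1 between the means of old and young cells was the limit for naming a gene higher or lower. On this limit Itga6, Alcam and Cd9 were higher in old cells, Cxcr4 was lower, and Itga4, Itgb1, Itgb2, Cd44, Tek and Jam3 were neither. The 3 higher genes stand beside 3.91% of 15014 genes with a count that were higher, and the 1 lower gene beside 4.49% that were lower. Of the 10 genes, 9 were expressed in at least 10% of the kept cells, and over the 9374 genes that were, the same shares were 6.24% and 6.98%. The median difference was -0.16 over the 10 genes, -0.02 over all genes with a count and -0.07 over the genes in at least 10% of cells. The members went both ways and are described in turn.

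**Figure D1:**
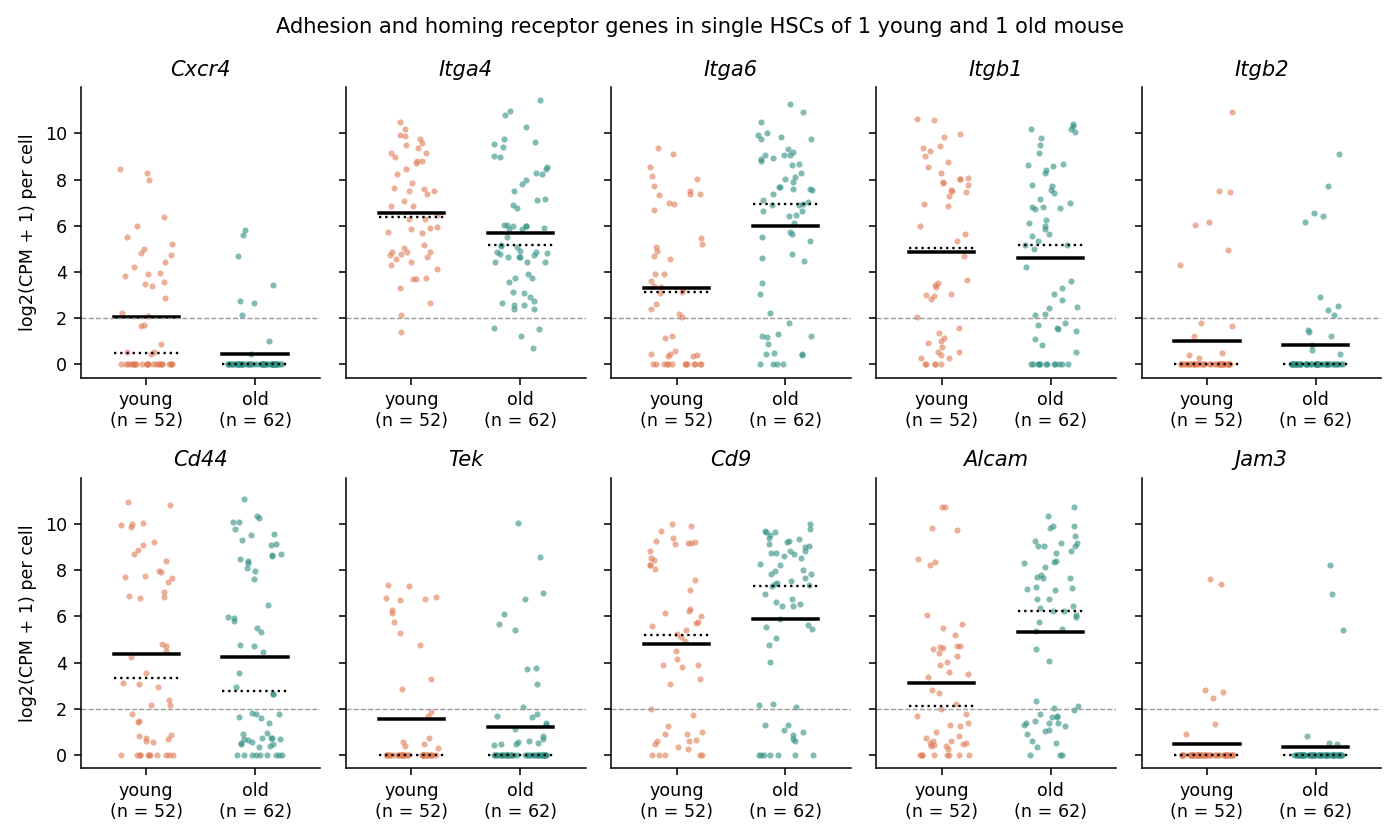
Level of each gene in every kept cell, as log2(CPM + 1) on the vertical axis, for the 52 young and 62 old cells, 1 point per cell. Solid lines are means, dotted lines medians, and the dashed line marks the limit of 2 for an expressing cell; Itga6 and Alcam fill the upper range in old cells, and Cxcr4 empties there.

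Cxcr4, the receptor for CXCL12, was the member with the largest difference in the share of expressing cells. It was expressed in 21 of 52 young cells (40.4%, 95% exact Clopper-Pearson interval 27 to 54.9) and in 7 of 62 old cells (11.3%, 4.66 to 21.9). Its level ran from 0 to 8.47 in young cells with a median of 0.49, and from 0 to 5.82 in old cells with a median of 0. The old range lay inside the young range, and most cells of either age were below the limit for expression. The mean level was 2.04 ± 2.57 (SD, n = 52) in young and 0.46 ± 1.32 (SD, n = 62) in old cells, a difference of -1.58 that placed Cxcr4 at rank 149 of 15014 genes from the lowest.

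At the limit of 2, Cxcr4 was also the only member whose share intervals for the ages did not overlap. An interval wholly below that of young cells was seen for 0.733% of all genes with a count, and one wholly above for 0.899%, against 0 of the 10 genes. Over the 9374 genes in at least 10% of cells, 94 had an interval wholly below and 127 one wholly above. At least 1 Cxcr4 read was counted in 27 young and 9 old cells. Young cells together held 4283 Cxcr4 reads (95% exact Poisson interval 4156 to 4413) and old cells 243 (213 to 276), a log2 ratio of -3.93 after scaling each age to its total. These sums rested on few cells, since 1 young cell gave 31.8% of the young reads and 1 old cell 42% of the old. With every cell thinned to 250000 reads the difference in mean level was -1.49, close to the value at full depth. The study's mitotic entry genes, Ccna2, Ccnb1, Cdk1 and Cdc25c, were used to pick out cycling cells. Of 13 old cells expressing any of these genes, 0 expressed Cxcr4. At a limit of 3 counts of the total, this allows a share of up to 23.1%. Among cells expressing none of these 4 genes the Cxcr4 share intervals overlapped. They were 14.9 to 53.5% for young cells and 5.94 to 27.2% for old cells. They also overlapped at a stricter limit of log2(CPM + 1) above 4, at 12.5 to 36.8% and 1.01 to 13.5%.

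Itga6, the alpha chain of a laminin receptor, had the largest difference of the 10 genes. Its level ran from 0 to 9.39 in young cells with a median of 3.14, and from 0 to 11.29 in old cells with a median of 6.93. Both ages held cells without the transcript, and the upper range was more densely filled in old cells. The mean was 3.33 ± 3.11 (SD, n = 52) in young and 5.98 ± 3.41 (SD, n = 62) in old cells. This difference of 2.65 placed Itga6 at rank 39 of 15014 genes from the highest. It was expressed in 31 young cells (59.6%, 45.1 to 73) and 48 old cells (77.4%, 65 to 87.1), and these intervals overlapped. The expressing cells themselves differed in level, with means of 5.42 in young and 7.53 in old cells. Above a stricter limit of log2(CPM + 1) of 4 lay 36.5% of young cells (23.6 to 51) and 72.6% of old cells (59.8 to 83.1), which did not overlap. Summed reads were 8334 in young and 34664 in old cells, a log2 ratio of 2.27.

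Alcam, the activated leukocyte cell adhesion molecule, showed a similar shift. Its level reached from 0 to 10.75 in young cells with a median of 2.11, and from 0 to 10.73 in old cells with a median of 6.22. The ranges coincided, and the old cells gathered in their upper part. The mean was 3.13 ± 3.14 (SD, n = 52) in young and 5.31 ± 3.45 (SD, n = 62) in old cells, a difference of 2.18 at rank 69 from the highest. Expressing cells numbered 26 in young (50%, 35.8 to 64.2) and 42 in old (67.7%, 54.7 to 79.1), with mean levels among them of 5.65 and 7.33. On summed reads the log2 ratio was 0.36, under the limit of 1. The young sum rested on few cells, as 3 of the 52 gave 75.2% of all young Alcam reads, whereas the 3 highest old cells gave 33.5%.

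Cd9, the tetraspanin, had the highest level per kilobase of the 10 genes in both ages. It was expressed in 35 young cells (67.3%, 52.9 to 79.7) and 48 old cells (77.4%, 65 to 87.1). Its median level was 5.18 in young and 7.34 in old cells, with highest values of 9.99 and 9.999 and a lowest value of 0 in both. The ages overlapped over the whole range. The means differed by 1.10, just past the limit, at rank 484 from the highest. The log2 ratio of summed reads was 0.69, below the limit.

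**Figure D2:**
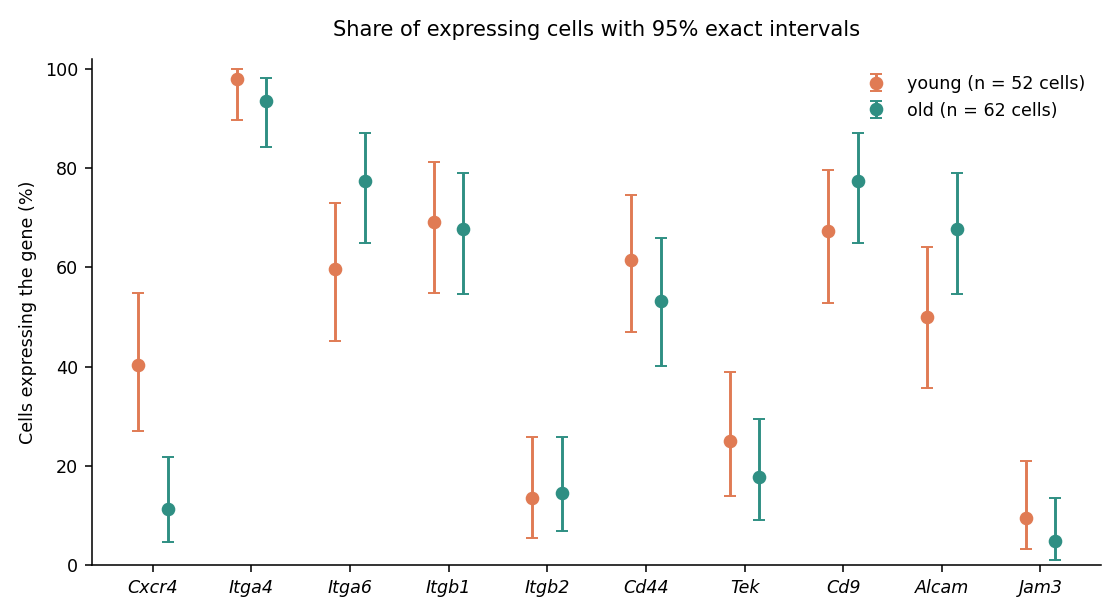
Percentage of kept cells expressing each gene, with log2(CPM + 1) above 2, in the young (n = 52) and old (n = 62) cells. Points are shares and bars 95% exact Clopper-Pearson intervals; the intervals of Cxcr4 are apart and those of the other 9 genes overlap.

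Itga4, the alpha chain of the VCAM1 receptor, was the most widely expressed member. It was expressed in 51 of 52 young cells (98.1%) and 58 of 62 old cells (93.5%). Its level ran from 1.40 to 10.51 in young cells with a median of 6.39, and from 0.70 to 11.43 in old cells with a median of 5.15. The means were 6.55 ± 2.33 (SD, n = 52) and 5.71 ± 2.65 (SD, n = 62), a difference of -0.84 that stayed under the limit. On summed reads the log2 ratio was 0.06, with 25.7% of the old reads from 1 cell. Exons of Itga4 share 1124 bases with Cerkl on the opposite strand. Whether counting used strand was not stated, so reads of both genes cannot be told apart there. Cerkl itself was expressed in 6 young and 11 old cells, with mean levels of 0.66 and 0.97.

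Itgb1, the beta chain that Itga4 and Itga6 share, was expressed in 36 young cells (69.2%, 54.9 to 81.3) and 42 old cells (67.7%, 54.7 to 79.1). The mean levels were 4.87 in young and 4.63 in old cells. This difference of -0.24 is small beside the spread among cells. The alpha and beta chains were scored together in each cell. Itga4 and Itgb1 were both expressed in 35 of 52 young cells (67.3%) and 39 of 62 old cells (62.9%). Itga6 and Itgb1 were both expressed in 22 young cells (42.3%, 28.7 to 56.8) and 32 old cells (51.6%, 38.6 to 64.5). These joint shares lay near the products of the single shares, 41.3% and 52.4% for Itga6 with Itgb1. This is given as a description of these cells.

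Itgb2, the leukocyte integrin beta chain, was expressed in 7 young (13.5%) and 9 old cells (14.5%). Its mean levels were 1.02 and 0.84. The summed reads gave a log2 ratio of -1.51, where 1 young cell held 79.2% of the young reads. Its alpha partners were rare, with Itgam expressed in 8 young and 1 old cells and Itgal in 3 and 1. Itgam and Itgb2 were both expressed in 2 young and 0 old cells, and Itgal and Itgb2 in 0 of 52 and 0 of 62, which by the same limit of 3 counts allows shares of up to 5.77% and 4.84%.

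Cd44, the hyaluronan receptor, was expressed in 32 young cells (61.5%, 47 to 74.7) and 33 old cells (53.2%, 40.1 to 66). Its mean levels were 4.36 and 4.24, a difference of -0.12. Its median was 3.33 in young and 2.79 in old cells, with highest values of 10.97 and 11.07. The ages overlapped over their whole range. Its value depended on which cells were taken. Among cells expressing none of the 4 mitotic entry genes the difference was 0.99.

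Tek and Jam3 were expressed in few cells. Tek, the angiopoietin receptor, was expressed in 13 young cells (25%, 14 to 38.9) and 11 old cells (17.7%, 9.20 to 29.5), with mean levels of 1.58 and 1.22. Summed reads gave a log2 ratio of 0.84, with 55.2% of the old reads in 1 cell. Tie1, the related receptor that pairs with TEK, was expressed with Tek in 4 young and 4 old cells. Jam3 was expressed in 5 young (9.62%) and 3 old cells (4.84%), or 7.02% of all kept cells, below the 10% filter. Its mean levels were 0.49 and 0.36. Jam2, whose product binds JAM-C, was expressed in 3 young and 22 old cells, and was found together with Jam3 in 0 young and 1 old cell.

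**Figure D3:**
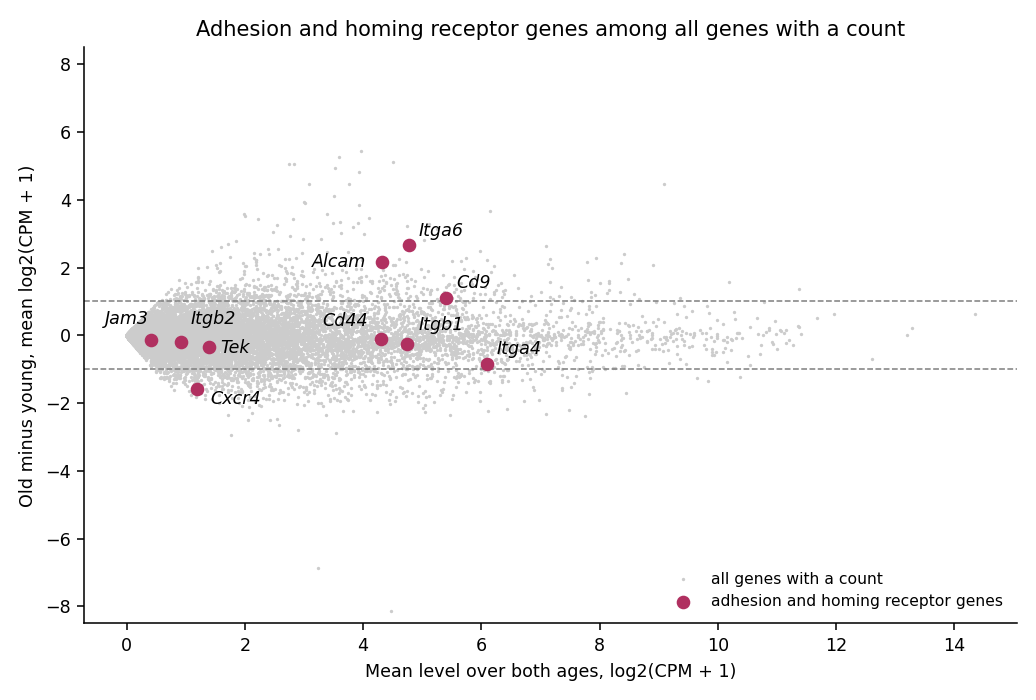
Mean level over both ages in log2(CPM + 1) on the horizontal axis against the difference of old minus young means on the vertical axis, for the 15014 genes with a count (grey) and the 10 adhesion and homing receptor genes (purple). Dashed lines mark differences of -1 and 1; Itga6, Alcam and Cd9 lie above the upper line and Cxcr4 below the lower.

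Levels between genes were compared per kilobase of exon, as mean log2(CPM per kilobase + 1). In young cells the order was Cd9 (4.05), Itgb1 (3.45), Itga4 (3.15), Cd44 (2.68), Cxcr4 (1.69), Alcam (1.64), Itga6 (1.64), Tek (0.98), Itgb2 (0.75) and Jam3 (0.33). In old cells it was Cd9 (5.08), Itga6 (3.51), Itgb1 (3.24), Alcam (3.23), Cd44 (2.62), Itga4 (2.57), Tek (0.71), Itgb2 (0.58), Cxcr4 (0.37) and Jam3 (0.26). Itga6 was at place 7 in young and 2 in old cells, and Cxcr4 at place 5 and 9. The largest gap between neighbours was 0.996 in young and 1.85 in old cells, and the SDs among cells were 1.17 to 3.13 and 1.09 to 3.13. Each gap was smaller than the larger SD of the genes on either side. The gap of 1.85, between Itga4 and Tek in old cells, exceeded the SD of Tek, 1.64. These SDs are the spread among cells and not the error of a mean, and the order was not tested.

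A single HSC expressed a median of 5 of the 10 genes in both ages. The number ran from 1 to 8 in young cells (mean 4.94 ± 1.5, SD, n = 52) and from 2 to 7 in old cells (mean 4.85 ± 1.23, SD, n = 62). With depth thinned to 250000 reads per cell the means were 5.23 and 5.13. Genes that were higher in old cells were also scored together. Itga6 and Alcam were both expressed in 16 young cells (30.8%, 18.7 to 45.1) and 33 old cells (53.2%, 40.1 to 66). Itga6 and Cd9 were both expressed in 22 young (42.3%) and 35 old cells (56.5%), and Cd9 and Alcam in 20 (38.5%) and 32 (51.6%). The products of the single shares were 29.8% and 52.4% for Itga6 with Alcam, and 40.1% and 59.9% for Itga6 with Cd9. For Cd9 with Alcam they were 33.7% and 52.4%. The joint shares lay near these products, so they add little to the single shares. Cxcr4 was found with Itga4 in 20 young and 7 old cells, close to its own 21 and 7, since nearly all cells expressed Itga4. Over the 45 pairs of members, Pearson correlations across cells ranged from -0.25 to 0.30 in young (n = 52) and from -0.29 to 0.31 in old cells (n = 62), with medians of 0.01 and -0.01. Cells of an age share a mouse and a chip, and correlations this weak in sparse counts are no finding.

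Likeness to other genes was measured over the 114 kept cells after centring each gene within its age, among 6932 genes in at least 20% of cells. The gene most like Cxcr4 was Crkl (Pearson r = 0.40), an adaptor of tyrosine kinase and integrin signalling. Its r was 0.57 in young and 0.13 in old cells. Gda was most like Alcam (0.39), Efr3a most like Itgb1 (0.38), Tmem258 most like Cd9 (0.37) and Selm most like Itga6 (0.35). Eif2d and Zfp704 had the highest r with Cd44 and Tek (0.36 each), and Mynn with Itga4 (0.33). Itgb2 and Jam3 were in too few cells. All these values are low and were the highest of many.

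The young and old cells differed in their share of cells expressing mitotic entry genes, 27 of 52 and 13 of 62, so members were also compared inside each age. Of the 9 members in at least 10% of cells, 2 differed by at least 1 between young cells with and without such a gene and 1 between old cells, against 24.9% and 20.4% of all genes passing the same filter within young and old cells. In young cells Cd44 was expressed in 23 of 27 cells with a mitotic entry gene and in 9 of 25 without, with mean levels of 5.44 and 3.19. In old cells the Cd44 means were 4.46 and 4.18. Alcam was the member past the limit in both ages, with means of 4.09 and 2.10 in young and 6.52 and 4.99 in old cells. Young cells with a mitotic entry gene also expressed more genes in all, a median of 4614 against 3862, and the part of this in the differences was not tested.

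The difference between ages was then taken among cells of 1 kind. Among cells without a mitotic entry gene (25 young, 49 old) it was 2.42 for Itga6, 2.89 for Alcam, 1.10 for Cd9 and -1.17 for Cxcr4. Itga4 was past the limit there, at -1.04. Among cells with such a gene (27 young, 13 old) the differences were 3.14 for Itga6, 2.43 for Alcam, 0.99 for Cd9 and -2.31 for Cxcr4. Itga6, Alcam and Cxcr4 kept their side of the limit in both kinds of cell. The Cxcr4 values rested on few cells. Behind its -2.31 stood 13 old cells, of which 0 passed the limit for expression. Its -1.17 came from 8 expressing young cells among 25 and 7 expressing old cells among 49, with overlapping share intervals. Whether the share of cells with a mitotic entry gene had a part in the differences between ages was not tested.

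The study defined platelet-primed HSCs by the Vwf-eGFP reporter. Here cells were split by the Vwf transcript instead, which is a different measure. It was found above the limit in 30 young cells and 37 old cells. Between cells with and without Vwf, 2 of the 9 members differed by at least 1 in young and 4 in old cells, against 17.2% and 13.4% of all genes. Itgb1 was lower with Vwf in both ages, at 4.26 against 5.71 in young and 4.16 against 5.32 in old cells. Cxcr4 in young cells was at 1.5 with Vwf and 2.77 without, and was expressed in 9 of 30 and 12 of 22 cells. In old cells Cd9 was at 6.49 with Vwf and 5.04 without, Itga6 at 6.49 and 5.23, and Alcam at 5.76 and 4.65. Among cells with Vwf the differences between ages were 2.96 for Itga6, 2.59 for Alcam, 1.32 for Cd9 and -1.23 for Cxcr4. Among cells without Vwf they were 2.17, 1.56, 0.73 and -2.03. Cd9 alone of these 4 genes was under the limit in cells without Vwf. Splits by expressed genes share the sampling of each cell's RNA and describe these cells only.

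**Figure D4:**
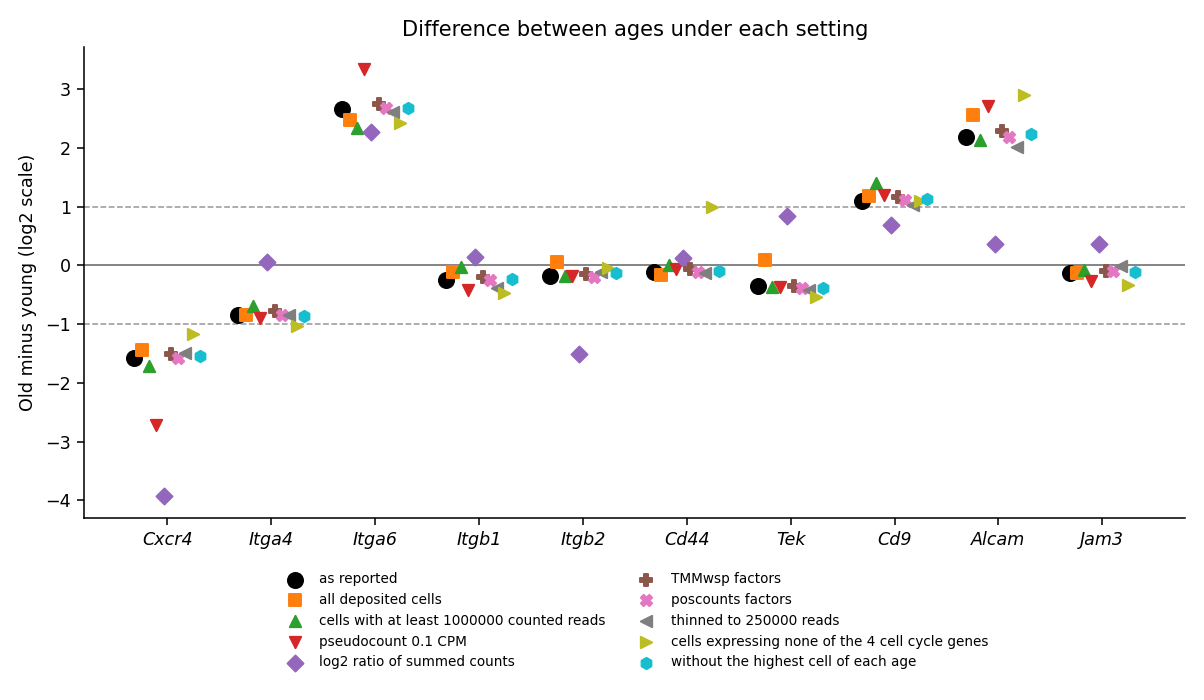
Difference of old minus young for each gene on a log2 scale, as reported (black circles) and under 9 other ways of processing (coloured symbols, named in the legend). Dashed lines mark -1 and 1; Cxcr4 and Itga6 lie past the limit under all 9, and Alcam and Cd9 under 8, the exception being the ratio of summed counts.

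The genes around these receptors were drawn from 11 lists of integrins, their activators, chemokine signalling, motility, receptor kinases, junctional molecules, tetraspanins, selectins and niche ligands. Of 217 entries 182 were in the table, and 123 were expressed in at least 10% of cells. Of the 123, 19 were higher and 17 lower in old cells by at least 1, with a median difference of -0.02, beside 6.24% and 6.98% of all genes in that filter.

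Among other integrin chains, 0 of 4 alpha chains were past the limit, with Itgav at 1.40 in young and 1.56 in old cells, Itga5 at 1.25 and 0.71, and Itga11 at 1.26 and 1.12. The only further beta chain in at least 10% of cells, Itgb3 of the platelet and vitronectin integrins, was at 1.43 and 4.27, expressed in 11 young and 40 old cells. Itgav and Itgb3 were both expressed in 1 young and 11 old cells. Of 21 genes of integrin activation and focal adhesion, 3 were higher and 2 lower. Rap1b, a small GTPase that switches integrins on, was at 5.10 and 7.16, the focal adhesion protein gene Zyx at 4.97 and 6.68, and Ilk, integrin-linked kinase, at 6.24 and 4.56.

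Of 17 genes of chemokine receptors and CXCR4 signalling, 2 were higher and 2 lower. The G protein regulators Rgs18 and Rgs2 went opposite ways, Rgs18 at 7.57 in young and 9.23 in old cells and Rgs2 at 5.07 and 3.72. Grk6, a kinase that acts on G protein-coupled receptors, was at 2.24 and 0.81, lower in old cells as Cxcr4 was. Of 22 cytoskeleton and motility genes 2 were higher and 6 lower. Rdx (radixin, a link of membrane proteins to actin) was at 5.59 and 3.66, Coro1a (coronin) at 6.52 and 4.66, and Cdc42, a small GTPase of cell polarity, at 7.44 and 8.70.

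Of 8 genes around TEK and other niche receptor kinases, 2 were higher and 0 lower, with the adaptor gene Grb2 at 2.53 and 3.65. Kit, the stem cell factor receptor, was at 8.0 and 8.93, under the limit. Among 12 immunoglobulin and junctional molecules 3 were higher and 1 lower. Jam2 was at 0.45 and 2.42, the endothelial and platelet adhesion gene Esam at 1.78 and 3.45, and Icam2, a ligand of leukocyte integrins, at 3.01 and 1.52. Ctnnb1 (beta-catenin), the 1 of 4 cadherin and catenin genes past the limit, was at 4.26 and 5.43. Beside Cd9, 2 of 15 tetraspanins were higher, Cd53 at 1.01 and 2.67 and Cd63 at 6.21 and 7.37, and 1 was lower, Cd37 at 2.03 and 0.94.

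Of 13 selectin, mucin and CD44 partner genes 3 were higher and 3 lower. Selp, encoding P-selectin of platelets and endothelium, was at 0.66 in young and 5.12 in old cells and was expressed in 5 and 42 cells. Cd74, a partner of CD44 and of MHC class II, was at 0.77 and 4.03. Selplg, the gene of the P-selectin ligand, was at 4.38 and 2.37, so ligand and receptor stood on opposite sides. Of 6 niche ligand genes in at least 10% of cells 0 were higher and 2 lower, Col4a1 at 1.85 and 0.66 and Col4a2 at 2.04 and 0.90, both collagen IV chains. Cxcl12, the ligand of CXCR4, was expressed in 1 young and 0 old cells, and Ackr3, its other receptor, in 0 and 0. Angpt1, which encodes the TEK ligand angiopoietin-1, was expressed in all 52 young and 62 old cells, with mean levels of 8.86 and 9.26.

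**Figure D5:**
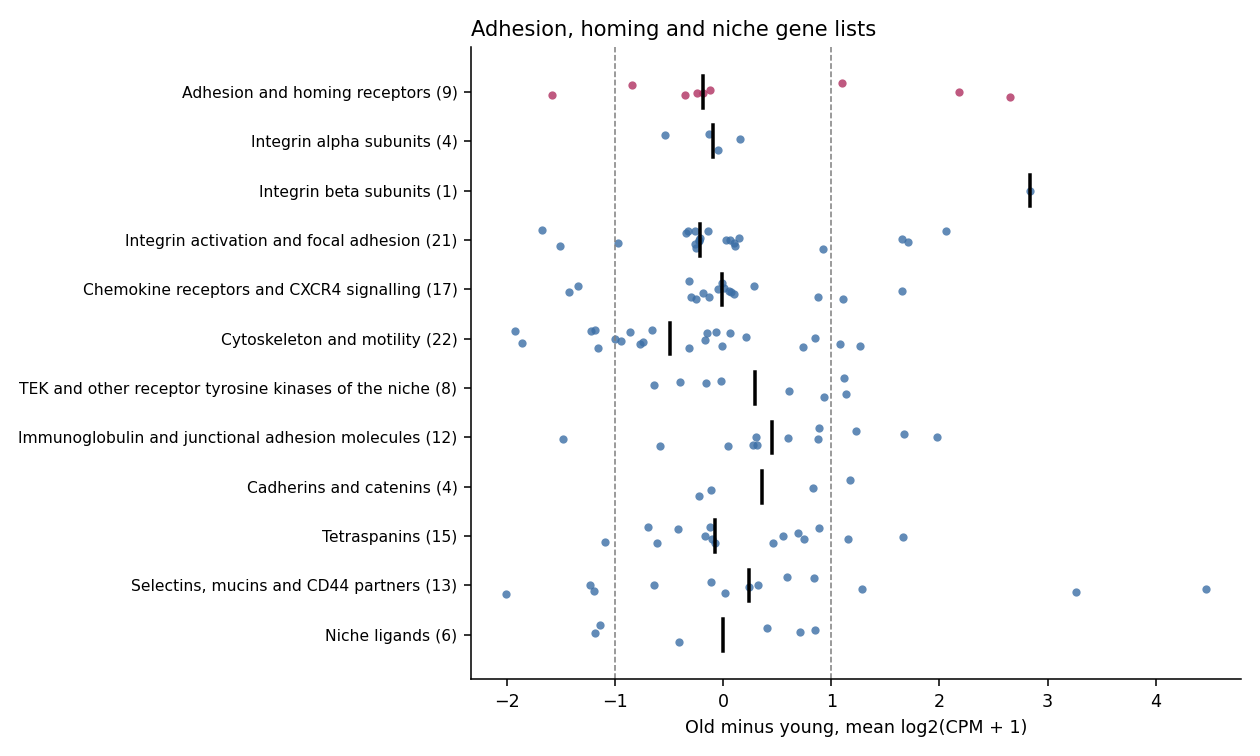
Difference of old minus young mean log2(CPM + 1) on the horizontal axis for genes expressed in at least 10% of the kept cells, by list, with the number of genes in brackets; purple points are the 9 adhesion and homing receptor genes that pass, blue points other genes, and vertical bars list medians. Dashed lines mark -1 and 1; points lie on both sides of 0 in every list with more than 1 gene.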

How the data were processed

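The authors captured single cells on a C1 chip, made cDNA with SMARTer chemistry, sequenced 51-base single-end reads, aligned them with TopHat2 2.0.10 to mm10 and counted reads per RefSeq gene. The deposited table holds raw counts per gene and cell, with no molecular identifiers. From these counts, CPM and log2(CPM + 1) with a pseudocount of 1 were computed (Python 3.11.15, numpy 2.4.6, pandas 2.3.3, scipy 1.17.1). The 114 cells were kept by the limits of the study on its own quality values: at least 500000 mapped reads, at most 10% mitochondrial reads and at least 3000 genes at RPKM 1. Precision is limited by counting error and by 1 mouse per age, so no test was run. No 2 cells held identical counts. Genes and cells were grouped by the labels. Members and lists were chosen with earlier results of these data known. Of each wider list, at most 3 genes with the largest absolute difference among those in at least 10% of cells were named, apart from genes shown beside a member. One gene that this rule names is not reported here. Alternatives were other cells, pseudocount, scale, factors (edgeR 4.0.16, DESeq2 1.42.0), thinning, limits and the highest cell left out, the last chosen after seeing the data. Scripts were tested on simulated data. Gene overlaps were read from the GRCm38 annotation.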

Additional observations from a re-analysis of the deposited data

How the results depend on the processing

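Over 9 alternatives Cxcr4 lay between -3.93 and -1.17 and Itga6 between 2.27 and 3.34, always past the limit. Cd9 lay between 0.69 and 1.40 and Alcam between 0.36 and 2.89, both under the limit only on summed counts. Summed counts gave 1 member higher (Itga6) and 2 lower (Cxcr4 and Itgb2). On that measure 16.6% of genes in at least 10% of cells were higher and 16.7% lower. Cells expressing none of the 4 mitotic entry genes gave 2 lower (Cxcr4 and Itga4) and 0 with a share interval below. In those cells 11.8% of genes in at least 10% of cells were higher and 6.28% lower, against 6.24% and 6.98% as first reported over all kept cells. A limit of log2(CPM + 1) above 4 gave 1 share interval above (Itga6) and 0 below, where Cxcr4 had 1. The cause of these changes was not tested. A pseudocount of 0.1 CPM moved the median over genes to -0.11, and 12.3% of genes were then higher and 15.8% lower. Of the values for single genes, 81 differences stayed within a fixed tolerance of the reported value, which is no measure of spread, and 9 did not. Of the shares, 99 stayed within the reported interval and 21 did not. No direction that had passed the limit reversed. No paired analysis was possible, since each age was a single mouse and cells of the ages were not matched. Depth and 1 mouse per age limit what small differences can show.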

Other observations

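The 21 cells that failed the limits of the study, 9 young and 12 old, entered the comparisons only in the alternative that took all 135 cells. Alcam was expressed in 3 of the 9 young and 9 of the 12 old cells, with mean levels of 2.06 and 6.68. Itga6 was expressed in 3 and 6 of them, with means of 2.68 and 4.27, and Cd9 in 4 and 5, with means of 2.22 and 4.04. Cxcr4 was expressed in 1 and 2, with means of 1.07 and 0.41. Tek was expressed in 0 and 4, with means of 0.03 and 2.63, while among kept cells its mean was higher in young cells. Itgb1 (means of 1.97 and 2.79) and Itgb2 (0.03 and 1.48) also changed direction from the kept cells. Itga4, Cd44 and Jam3 kept the direction of the kept cells. The left-out young cells held 6331 to 5046582 reads on genes and the old 4610 to 5176498.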
